A study of Homo sapiens with 3 samples.

Results

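SWI/SNF and ISWI remodellers are protein machines that use ATP to slide, evict or restructure nucleosomes. The genes for 10 of their large subunits are described here by the RNA recovered with CTCF, the zinc-finger protein that anchors chromatin loops. They were chosen by complex membership, but with earlier results of these data known. Other subunits of the same complexes, large ones among them, were placed in comparison lists. From SWI/SNF came the ATPases SMARCA4 and SMARCA2 and the scaffold subunits SMARCC1 and SMARCC2. The ARID subunits ARID1A, ARID1B and ARID2 and the bromodomain subunit PBRM1 also belong to SWI/SNF. From ISWI came the ATPase SMARCA5, and BPTF, the large subunit of the ISWI complex NURF. All 10 had an entry among the 17201 genes listed in the deposited table, 12220 of them protein-coding.

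The measurement was PAR-CLIP in U2OS, an established human osteosarcoma line. Cells took up 4-thiouridine (400 µM, 16 to 24 h), were crosslinked at 365 nm with 400 mJ/cm2, and the RNA bound to immunoprecipitated CTCF from nuclear lysate was sequenced. The labels describe 2 biological replicates, made with different lots of 1 anti-CTCF antibody, and their merge, and only the merged counts were analysed here. No genotype or drug differs between them, so there is no contrast between conditions, no error between cultures and no p-value. Intervals are 95% and cover counting error only, and since RNA abundance in these cells and a control precipitation were not analysed here, a high count is not a measure of enrichment by CTCF.

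As background, SWI/SNF in human cells comes in several forms built on a shared core of an ATPase and a pair of SMARCC scaffold proteins. Canonical BAF carries ARID1A or ARID1B. PBAF carries ARID2 and PBRM1 instead. ISWI complexes pair SMARCA5 or SMARCA1 with a large partner such as BPTF or a BAZ protein. SMARCA5 and BPTF have been tied to CTCF occupancy and nucleosome order around CTCF sites, which concerns the proteins and not the RNA counted here.

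The table gave whole-number counts per gene interval, summing to 1322047, with no gene under 6. Whether a count is a read, a deduplicated read or a T-to-C event is not stated. The 10 genes held 3407 of these, or 0.258% (exact Clopper-Pearson interval 0.249 to 0.267%). Their counts ran from 58 to 757 with a median of 311.5, against a median of 43 over all listed protein-coding genes. There were 8 of 10 with 100 counts or more, where 26.1% of listed protein-coding genes reached that level. The 10 intervals were also long, with a median of 110.7 kb against 30.2 kb, so counts were read per kb and against genes of like length as well. Both scales rest on the table's intervals, which were not compared with full gene models. For the latter, each of 50 groups of protein-coding genes held intervals of like length, and a gene was given the percentile of its count among the others of its group. By that measure 7 of 10 lay above the 75th percentile, against 25.1% of all listed protein-coding genes, and the median percentile was 89.9.

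Checked against cell markers, 8 of 9 mesenchymal and bone genes were listed, with counts from 8 to 1277 and COL1A2 missing. Of 10 markers of blood, liver, epithelial and endothelial cells 3 were listed. These were the keratin genes KRT8 (206 counts) and KRT18 (146), whose intervals overlap each other, and CDH1 (13). Their part in the values below was not tested.

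**Figure D1:**
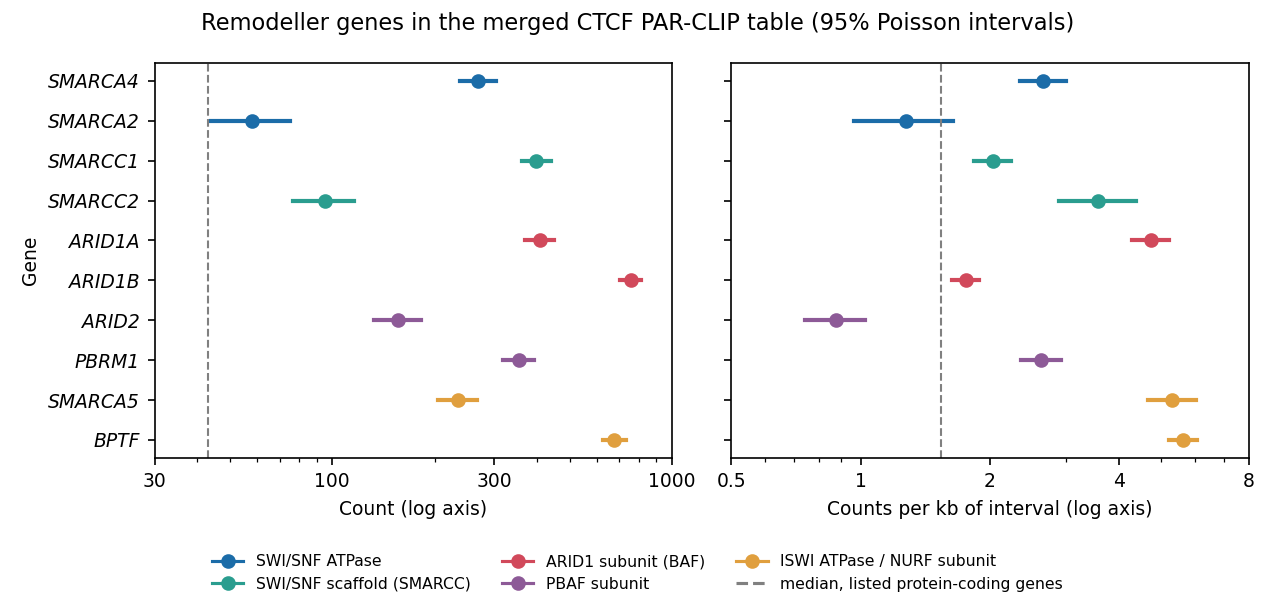
Counts (left) and counts per kb of interval (right) of the 10 remodeller genes in the merged table, on log axes, with 95% Poisson intervals as bars and the median of listed protein-coding genes as a dashed line. ARID1B is highest by count (757) but only eighth per kb (1.76), while BPTF is high on both (677 and 5.62).

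The 2 SWI/SNF ATPase genes stood far apart. SMARCA4, also called BRG1, had 269 counts (95% Poisson interval 238 to 303) over 101 kb of chromosome 19 (11071677 to 11172735 in hg19), which is 2.66 per kb and the 84.2nd percentile for its length. SMARCA2, also called BRM, had 58 counts (44.0 to 74.98) over 45.6 kb of chromosome 9 (2015374 to 2060971), or 1.27 per kb and the 47.5th percentile. SMARCA2 had the lowest count of the 10 and lay close to the median of its length group, which was 61.5 counts. Counting error gives its percentile a range of 39.9 to 55.1, and it came to 58.6 with no length groups and 55.0 among all listed genes, so its side of the median is not resolved. SMARCA4 held 82.3% of the pair's counts (exact Clopper-Pearson interval 77.7 to 86.3%) and 67.7% when counted per kb. The SMARCA2 gene is known to extend well beyond the interval listed in the table, so its count covers part of the gene. Whether the same holds for other genes named below was not checked. Among these are SMARCB1 (interval of 16.5 kb), CHD2 (16.0 kb) and RAD54L2 (0.727 kb), so their counts may not be whole-gene values. SMARCA4 and SMARCA2 are also alike in sequence, and the treatment of reads matching both is not stated.

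The SMARCC scaffold genes, whose proteins dimerise at the base of the complex, changed places with the scale. SMARCC1 had 399 counts (361 to 440) over 196.6 kb of chromosome 3 (47626762 to 47823407), and SMARCC2 had 95 (76.9 to 116) over 26.6 kb of chromosome 12 (56556767 to 56583351). By count SMARCC1 held 80.8% of the pair (77.0 to 84.2%). Per kb the order was the opposite: SMARCC1 had 2.03 per kb and SMARCC2 3.57, which left SMARCC1 with 36.2% of the pair. Against genes of like length SMARCC1 was at the 88.5th percentile and SMARCC2 at the 74.7th. The count of SMARCC2 gives this percentile a range of 70.0 to 79.8 from counting error, so its side of the 75th is not resolved. The whole SMARCC2 interval lies inside a listed gene annotated as sense-overlapping (98 counts over 27.9 kb), so which of these genes the RNA came from cannot be told apart.

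Among the ARID subunits, which carry an AT-rich interaction domain that binds DNA, the BAF genes had more counts than the PBAF gene. ARID1B had 757 counts (704 to 813), the highest of the 10 and 106th of all listed protein-coding genes, over 431 kb of chromosome 6 (157099063 to 157530284). ARID1A had 408 (369 to 450) over 86.1 kb of chromosome 1 (27022524 to 27108595). ARID2 had 156 (133 to 183) over 178 kb of chromosome 12 (46123448 to 46301823).

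Per kb the order within this family was ARID1A at 4.74 (4.29 to 5.22), ARID1B at 1.76 (1.63 to 1.88) and ARID2 at 0.875 (0.743 to 1.02), and these 3 Poisson intervals do not overlap. ARID1A therefore held 35.0% of the ARID1 pair by count (32.3 to 37.8%) and 73.0% per kb. Both ARID1 genes were at the 95.1st percentile for their length, where their groups had medians of 92.5 counts (ARID1A) and 110.5 counts (ARID1B). ARID2 was at the 62.7th percentile (56.6 to 67.2 from counting error), with the lowest count per kb of the 10.

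PBRM1, the polybromo subunit that reads acetylated histones in PBAF, had 354 counts (318 to 393) over 134.4 kb of chromosome 3 (52579368 to 52713730). That is 2.63 per kb and the 91.4th percentile for length. PBAF's subunits thus differed among themselves: PBRM1 had 2.63 per kb (2.37 to 2.92) and ARID2 0.875, with intervals that do not overlap.

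**Figure D2:**
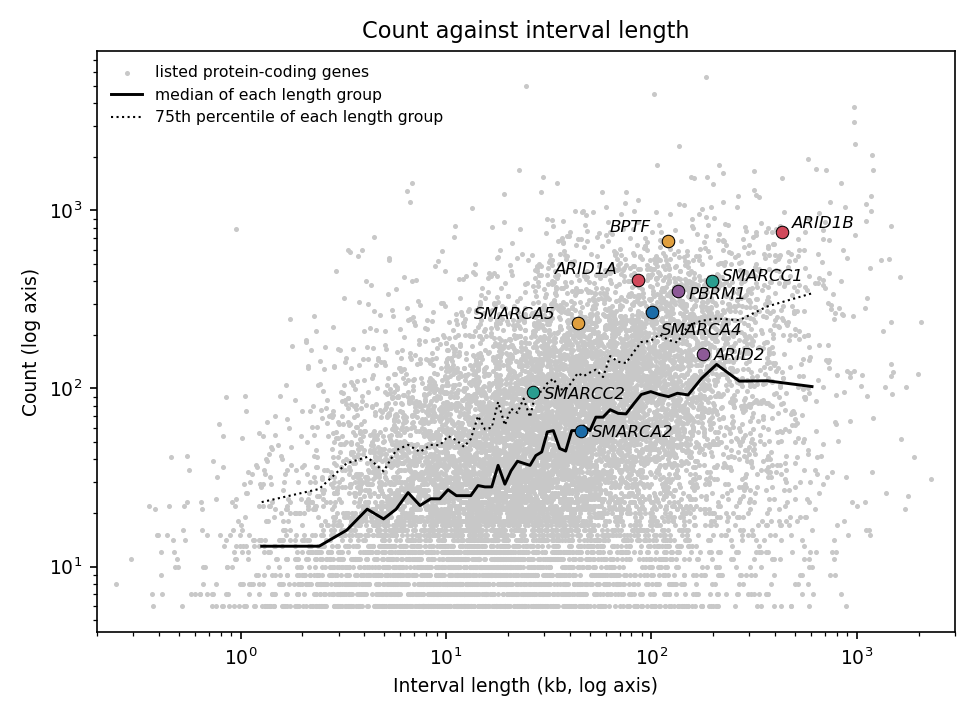
Count against interval length (kb), both on log axes, for listed protein-coding genes (grey) and the 10 remodeller genes (coloured by subunit role), with the median (solid) and 75th percentile (dotted) of 50 length groups. SMARCA2 (58 counts) lies at the median line, ARID2 (156) between the lines, SMARCC2 (95) at the dotted line and the other 7 above it.

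The 2 ISWI genes had the highest counts per kb of the 10. BPTF, whose protein reads methylated and acetylated histones for NURF, had 677 counts (627 to 730) over 120.4 kb of chromosome 17 (65821640 to 65942007). At 5.62 per kb it ranked first of the 10, and at the 99.6th percentile for its length it lay near the top of a group with a median of 90 counts. SMARCA5, the ATPase also called SNF2H, had 234 counts (205 to 266) over 44.0 kb of chromosome 4 (144434616 to 144478639), or 5.32 per kb and the 93.4th percentile. The Poisson intervals per kb of BPTF (5.21 to 6.06) and SMARCA5 (4.66 to 6.04) overlap, and that of SMARCA5 also overlaps that of ARID1A, so the place of SMARCA5 above ARID1A is not resolved. SMARCA1, the other ISWI ATPase and not one of the 10, had 93 counts on the X chromosome, at the 57.0th percentile. SMARCA5 held 71.6% of that pair's counts (66.3 to 76.4%) and 81.5% per kb.

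**Figure D3:**
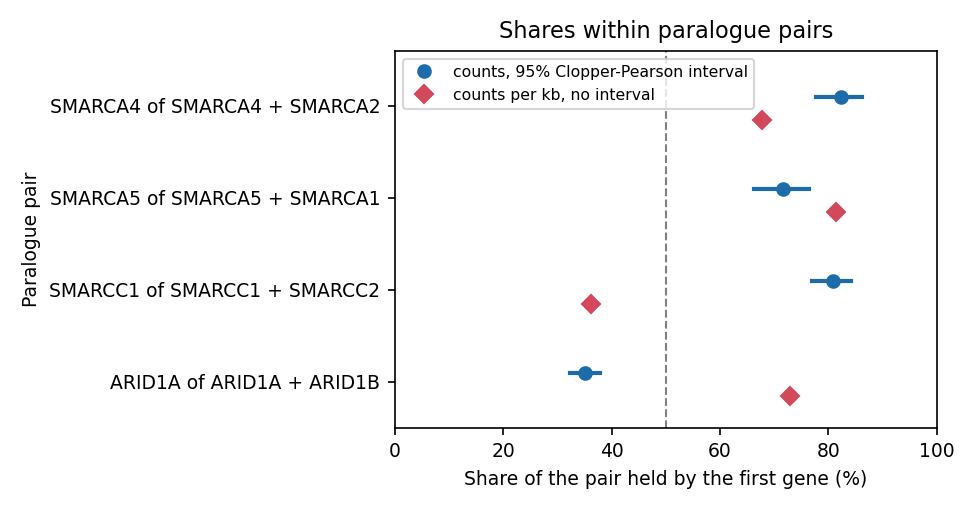
Share (%) of each paralogue pair held by the first-named gene, by counts (circles with exact 95% Clopper-Pearson intervals) and by counts per kb (diamonds, no interval), with 50% as a dashed line. The ATPase pairs stay on 1 side of the line on both scales, while SMARCC1 (80.8% and 36.2%) and ARID1A (35.0% and 73.0%) cross it.

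In the order by count, 6 of the 9 neighbouring pairs were resolved, in that the higher gene's share of their summed count had an interval above 50%. The closest of these was ARID1B over BPTF, at 52.8% (exact Clopper-Pearson interval 50.2 to 55.4%). These intervals take each count as independent, and would be wider if amplified reads were counted. The order of ARID1A over SMARCC1 (50.6%, 47.0 to 54.1%), of SMARCC1 over PBRM1 (53.0%, 49.3 to 56.6%) and of SMARCA4 over SMARCA5 (53.5%, 49.0 to 57.9%) was not resolved at this depth. By the stricter reading that the genes' own Poisson intervals do not overlap, 4 of the 9 steps were unresolved, ARID1B over BPTF among them. Across the 10 genes count followed interval length with a Spearman rho of 0.612, and 0.434 across listed protein-coding genes. Without SMARCA2, a choice made after seeing the data, rho was 0.533 over 9 genes. Whether the 10 differ from other genes in this was not tested. These are descriptions across genes of 1 library, which are not independent replicates. The range across the 10 was 13.1-fold by count and 6.43-fold per kb.

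For scale, ARID1B stood between NAP1L1, a histone chaperone gene with 758 counts over 40.1 kb, and UBE2E2, a ubiquitin-conjugating enzyme gene with 755 over 387 kb. SMARCA2 shared its count of 58 with 52 other protein-coding genes.

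Overlap with other listed genes touched 3 of the 10. Besides SMARCC2, the antisense gene SMARCA5-AS1 (15 counts over 1.16 kb, 144434625 to 144435788) lies inside the start of SMARCA5 and equals 6.41% of its count. An antisense gene without a symbol (11 counts over 11.98 kb) lies inside ARID1B and equals 1.45% of its count. Strand was not stated for the counting, so reads from these antisense genes and their partners cannot be told apart. Subtracting them left SMARCA5 with 70.2% of its pair and ARID1A with 35.4%. No listed gene was named as 1 of the 10 symbols followed by P, with or without digits, as pseudogenes often are (0 found). Pseudogenes under other names, or among the 681 listed identifiers without a name entry, could not be found this way.

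The other subunits of SWI/SNF had a lower median count than the 10, a difference that was not tested. Of 23 other SWI/SNF genes 21 were listed, with a median of 59 counts and a median percentile for length of 63.9, against 43 counts and the 50th percentile over listed protein-coding genes. There were 5 of 21 with 100 counts or more (background 26.1%) and 6 of 21 above the 75th percentile for length (background 25.1%), or 23.8% and 28.6%, both near the background. ACTB had more counts than any of the 10, and SMARCD1, BCL11A, SMARCE1, BICRA and BRD9 had more than SMARCC2 and SMARCA2. Per kb, their median of 2.67 was close to the 2.65 of the 10 genes, as their intervals were shorter (median 23.6 kb).

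Within the core, SMARCD1 had 132 counts (95.1st percentile for its length), SMARCE1, an HMG-box subunit, 111, SMARCB1, the SNF5 subunit lost in rhabdoid tumours, 48, and SMARCD2 and the actin-related ACTL6A 42 each. ACTB, which encodes the actin of the complex as well as of the cytoskeleton, had 786 over an interval of 0.948 kb. The PBAF-specific subunits PHF10 and BRD7 had 91 and 59. Those of the non-canonical form had 96 (BRD9), 102 (BICRA) and 90 (BICRAL). In BAF, DPF2 had 52 counts and SS18, the gene fused in synovial sarcoma, 36.

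Subunits of neuronal or lymphoid forms were not uniformly absent. ACTL6B and SMARCD3 were not listed, and DPF1 (17 counts) and DPF3 (31 over 275 kb) lay at the 33.7th and 20.9th percentiles for length. SS18L1 had 61 counts, BCL11A 122 and BCL11B 91, at the 65.2nd, 63.9th and 46.5th percentiles. The BCL7 genes, not taken here as subunits of those forms, had 17 (BCL7B), 11 (BCL7A) and 8 counts (BCL7C). For their lengths these lay at the 51.2nd, 8.40th and 2.46th percentiles. In this list SMARCE1, ACTL6A, BCL7C and BICRA overlap another listed gene and may share its reads.

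All 11 other ISWI genes were listed, with a median of 93 counts. There were 5 with 100 or more (45.5%, background 26.1%) and 6 above the 75th percentile for length (54.5%, background 25.1%). Once overlapping genes were left out, these were 3 of 8 (37.5%) and 4 of 8 (50%). The median percentile for length was then 75.2 rather than 82.4. BAZ1B, the partner of SMARCA5 in the WICH complex, had 993 counts over 81.9 kb, more than any of the 10 genes and the highest count of its length group. BAZ2B had 637 counts, RSF1 419, BAZ2A of the nucleolar complex NoRC 262 and BAZ1A of the ACF complex 260, all between the 82.4th and 97.5th percentiles. CECR2 was the exception among the large partners, with 90 counts over 192 kb at the 39.5th percentile. The small subunits had fewer counts in shorter intervals, with 79 (RBBP4), 54 (POLE3), 38 (RBBP7) and 23 (CHRAC1). For length they lay at the 68.1st, 83.2nd, 64.6th and 53.9th percentiles, so POLE3 was level with BAZ1A on that scale. BAZ2B, RSF1 and RBBP7 overlap another listed gene.

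**Figure D4:**
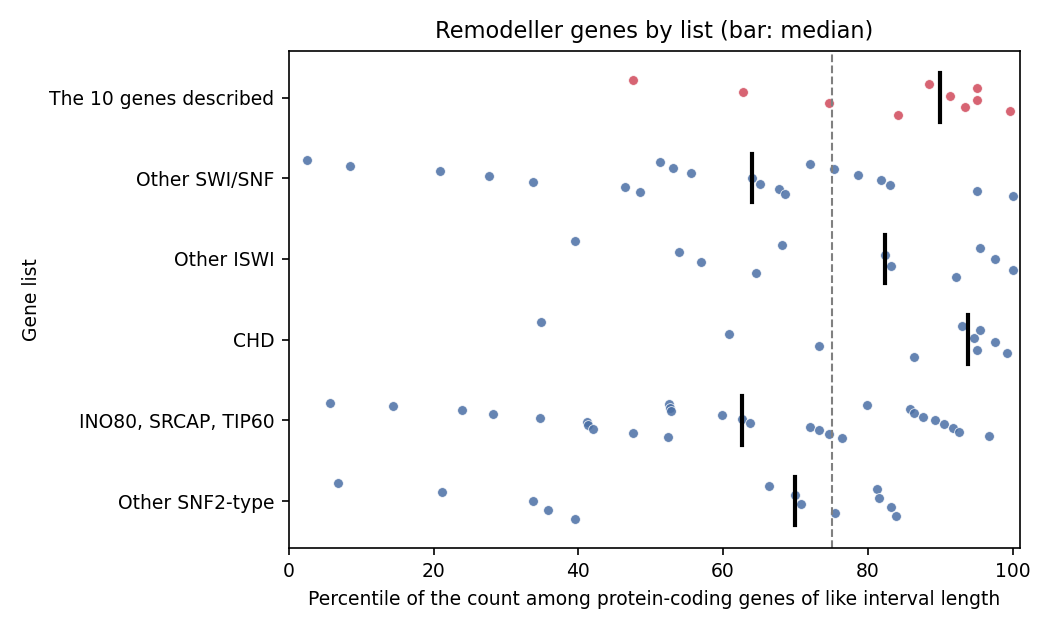
Percentile of each listed gene's count among protein-coding genes of like interval length, by gene list, with a bar at each list's median and a dashed line at the 75th percentile. The medians are 89.9 for the 10 genes, 93.8 for CHD genes, 82.4 for other ISWI genes, 70.0 for other SNF2-type genes, 63.9 for other SWI/SNF genes and 62.5 for the INO80, SRCAP and TIP60 list. With overlapping genes left out, the medians of other ISWI and other SNF2-type genes are 75.2 and 75.6, and the rest keep their order.

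Set beside other remodeller families, the 10 genes were closest to the CHD genes by median count and by median percentile for length, but not per kb. The 10 CHD genes had a median of 349.5 counts and a median percentile for length of 93.8, with 7 above the 75th. Their highest were CHD4, the NuRD ATPase, at 666 counts, and CHD7 at 590, and their lowest CHD2 at 35 over an interval of 16.0 kb. Per kb the medians were 3.18 for CHD genes, 2.65 for the 10 genes, 2.73 for other ISWI genes, 2.67 for other SWI/SNF genes, 2.52 for the INO80, SRCAP and TIP60 list and 2.40 for other SNF2-type genes, so the CHD genes were the farthest. The 29 genes of the INO80, SRCAP and TIP60 complexes had a median of 51 counts, with 10 above the 75th percentile (34.5%), and 3 of 16 (18.8%) once overlapping genes were left out, on either side of the background of 25.1%. In that list the ATPase genes EP400 (482 counts) and INO80 (341) were highest and INO80C (8) lowest. The 13 other SNF2-type genes had a median of 143 counts with 5 above the 75th percentile (38.5%). Once overlapping genes were left out, 4 of 8 (50%) lay above it, and the median percentile for length was 75.6 rather than 70.0. That list ran from BTAF1 (256) and SMARCAD1 (225) down to RAD54L2 (6 over 0.727 kb). Whether these lists differ from the 10 genes was not tested, since 1 merged sample gives no error for such a difference.

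The genes around each of the 10 were examined after the values above had been seen. By the same percentiles, 9 of the 10 already lay above the median of their length group. A high place beside neighbours is therefore not separate support. Within 1 Mb on either side, 9 of the 10 lay above the median percentile for length of the listed protein-coding genes there, where 50.3% of all listed protein-coding genes with a neighbour did so. A percentile above that of every such neighbour was found for 4 of the 10 and for 9.23% of all those genes, which is easier to reach where neighbours are few. These 4 were ARID1A (28 neighbours, median percentile 37.9), ARID1B (4 neighbours, 60.2), SMARCA5 (4 neighbours, 40.2) and BPTF (13 neighbours, 58.9). SMARCA4 had 36 neighbours with a median percentile of 36.2, and 3 of them exceeded its own 84.2. SMARCC1, with 25 neighbours, was exceeded by 2, and PBRM1, with 34, by 1, which was GNL3 (92 counts, 92.8th percentile).

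Of the remaining 3, only SMARCA2 lay below the median of its neighbours within 1 Mb. ARID2 was at the 62.7th percentile beside a median of 61.7 for its 6 neighbours, among which SLC38A2 had 307 counts, but within 0.5 Mb it was below a median of 77.7. In that narrower window 8 of the 9 genes with a neighbour lay above the median, against 49.6% of all. SMARCC2, at 74.7 beside a median of 62.9, had 44 neighbours, 13 of which exceeded it. SMARCA2 had 3 listed neighbours with a median percentile of 94.7, above its own 47.5. Neighbours under 6 counts are missing from the table, so these medians describe listed genes only.

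**Figure D5:**
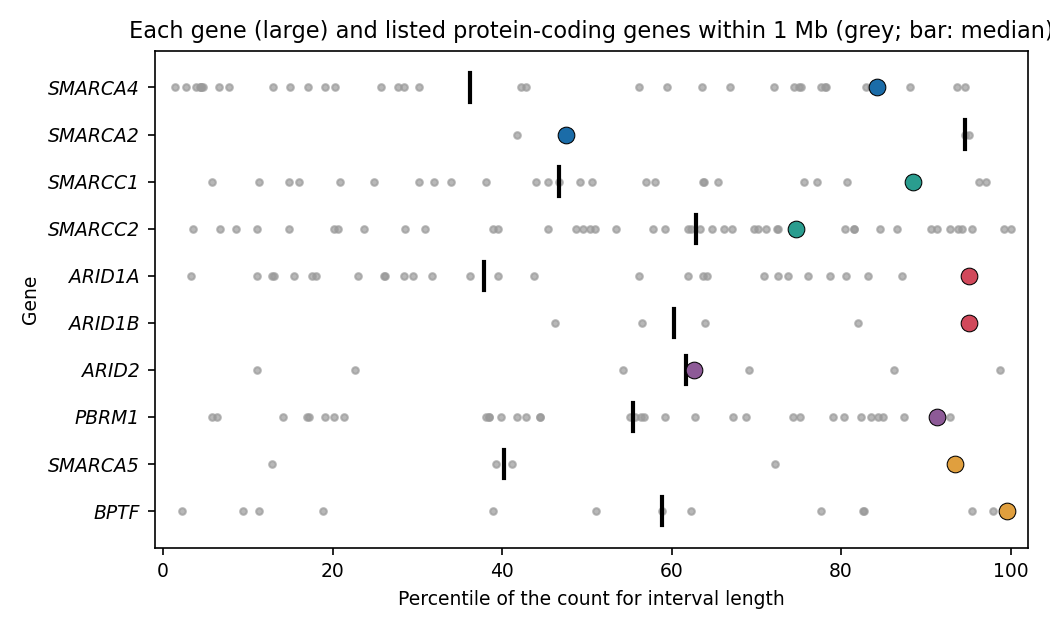
Percentile of the count for interval length of each of the 10 genes (large points) and of listed protein-coding genes within 1 Mb on either side (grey), with a bar at the neighbours' median. ARID1A, ARID1B, SMARCA5 and BPTF lie to the right of all their neighbours, and SMARCA2 lies left of its neighbours' median.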

How the data were processed

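Per the labels, the authors merged the sequencing data of 2 biological replicates, and the deposited table of the merge gives whole-number counts per Ensembl gene. Bowtie, bedtools and the hg19 build are named in the submitters' processing notes. The sources used here do not give versions, what was counted (raw or deduplicated reads, or T-to-C events), strand use or the treatment of reads that match several places. Coordinates are as in the table. Symbols came from a table of Ensembl identifiers that held 16520 of the 17201.

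Intervals are exact 95% Poisson (counts) and Clopper-Pearson (shares). Both treat every count as an independent molecule and cover counting error only. Amplified reads are not independent molecules, so if they were counted the intervals are too narrow. Percentiles for length used 50 groups of 244 or 245 listed protein-coding genes. The percentile was checked only on simulated counts drawn around the means of the same length groups. Partial intervals, reads shared by overlapping genes, repeated reads and the lowest count of 6 were not simulated. The check therefore cannot show how these affect the values. Python 3.11.15, scipy 1.17.1 and pandas 2.3.3 were used.

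The members, lists and rules were chosen with earlier results of these data known. Named were all 10 members, genes overlapping them, all other SWI/SNF and ISWI genes, the 2 highest and the lowest listed of each other list, and the genes nearest by count to the highest and lowest member. Alternatives covered overlap, length groups, reference genes, thresholds and scaling per kb. With 1 sample no likeness of pattern between genes can be measured.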

Additional observations from a re-analysis of the deposited data

How the results depend on the processing

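The median count of the 10 genes was 311.5. It was 354 without the 3 genes that overlap another listed gene, and also 354 without SMARCA2, a choice made after seeing the data. The median percentile for length stayed between 89.9 and 92.4 under the other references, length groups and the 200 genes nearest in length (added after seeing the data), and was 94.1 with no length groups. The number above the 75th percentile was 7 or 8, SMARCC2 being the gene that crossed (ARID2 with no length groups), and 5 of 7 without overlapping genes. The share of the summed count was 0.258%, 0.299% of protein-coding counts and 0.313% without overlapping genes. Per kb, SMARCA4 held 67.7% of its pair and SMARCA5 81.5%, and the pairs reversed for SMARCC1 (36.2%) and ARID1A (73.0%), because the longer gene of each had more counts but fewer per kb. Only 1 of the 10 genes kept its place in the order per kb. Of 20 recomputed values of the other lists 9 moved, all of them numbers of genes at another threshold or without overlapping genes. The 5 medians were kept by a rule that treats a median as a single count with counting error. That rule does not measure the spread across the genes of a list. Leaving out a replicate was not run, as single replicates were not analysed here. No paired analysis was possible because the counts of both replicates were merged. Among the 10, counting error was largest relative to the count for SMARCA2 (58) and SMARCC2 (95). Some other subunits lay near the lowest count of 6, such as BCL7A (11) and BCL7C (8).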
